A study of Mus musculus with 8 samples.

Results

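Fbp1, Pck1, G6pc, Khk, Sord and Pcx are 6 genes of glucose and fructose handling, followed here in whole embryonic mouse kidney. They were picked by symbol from a table of 24151 genes, before any filter on level, and the transcripts listed for each symbol were summed. 5 of the 6 had at least 1 TPM (length-scaled transcript abundance, with every library brought to the same sum) in at least 2 of the 8 libraries. Pcx did not and was not tested. Alb, the gene of serum albumin, was read beside them as a marker of liver RNA.

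The study asked how exposure before birth to chlorpyrifos (CPF), an organophosphate insecticide, bears on gene expression in the developing kidney. In the CPF group, pregnant ICR mice, bred at 8 weeks of age, received 5 mg/kg CPF in dimethyl sulfoxide under the skin each day over gestation days 7.5 to 11.5. In the DMSO group, mice of the same strain and age received the same volume of the solvent over the same days. Kidneys were taken on 4 embryonic days, 2 days apart between E12.5 and E18.5, with 1 total RNA library for each agent and stage. Exposure therefore ended before the first kidneys were taken, and nothing in the sources used here says how many embryos or litters a library holds.

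Gluconeogenesis builds glucose from lactate, glutamine and glycerol, and among tissues it is known from the liver and the kidney, where it lies in the proximal tubule. Pyruvate carboxylase (Pcx) makes oxaloacetate, cytosolic phosphoenolpyruvate carboxykinase (Pck1) turns it into phosphoenolpyruvate, fructose-1,6-bisphosphatase (Fbp1) removes a phosphate further up the path, and the catalytic subunit of glucose-6-phosphatase (G6pc) releases free glucose. Sorbitol dehydrogenase (Sord) makes fructose from sorbitol, and ketohexokinase (Khk) phosphorylates fructose, the first step of its breakdown. All of these enzymes are also made in liver, so liver tissue that stays on a dissected kidney would bring their transcripts along.

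Fbp1, Pck1 and G6pc had the largest differences between E18.5 and E12.5 among the tested members, and the 250 bases upstream of their start sites are printed for that reason. The sequences are RefSeq's, on build GRCm38.p6, and read 5′ to 3′ on the strand of the gene. Capitals mark a TATA box (TATAAA) or the core of a cAMP response element (TGACG), each searched on both strands. The windows are chr13:62888283-62888532 for Fbp1 (minus strand), chr2:173152823-173153072 for Pck1 (plus strand) and chr11:101367466-101367715 for G6pc (plus strand).
Fbp1: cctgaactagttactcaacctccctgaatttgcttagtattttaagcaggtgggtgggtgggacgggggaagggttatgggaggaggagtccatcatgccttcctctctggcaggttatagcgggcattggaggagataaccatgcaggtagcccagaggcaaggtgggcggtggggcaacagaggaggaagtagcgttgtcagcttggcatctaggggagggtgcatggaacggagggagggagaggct
Pck1: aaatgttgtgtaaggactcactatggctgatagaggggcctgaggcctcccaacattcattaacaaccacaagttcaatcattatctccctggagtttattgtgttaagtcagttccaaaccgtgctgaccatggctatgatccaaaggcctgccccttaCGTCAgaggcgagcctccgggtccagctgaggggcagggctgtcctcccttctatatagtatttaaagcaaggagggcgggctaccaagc
G6pc: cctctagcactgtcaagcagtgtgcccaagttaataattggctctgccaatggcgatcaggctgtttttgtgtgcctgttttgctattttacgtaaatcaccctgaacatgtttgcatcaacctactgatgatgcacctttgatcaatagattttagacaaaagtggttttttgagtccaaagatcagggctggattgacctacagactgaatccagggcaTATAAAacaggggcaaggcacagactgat

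The Pck1 window held the TGACG core on its minus strand, its leftmost base at -90 from the start. The G6pc window held TATAAA at -29, and the Fbp1 window held none of the letters shown in capitals. Khk, the tested member with the smallest difference between E18.5 and E12.5, had TGACG at -74 on the minus strand, so these letters did not set Pck1 apart from it. The windows of Khk (chr5:30921309-30921558) and Fbp1 reach into the gene bounds given below, so their positions count from a start site inside those bounds. Sord had neither motif. Among 32851 RefSeq windows of the same length, TATAAA was present in 12.4% and TGACG in 17.8%. The palindromic element TGACGTCA (in 1.55% of windows, and overlapping TGACG), the HNF4 site CAAAGTNCA (1.19%) and the FOXO core GTAAACA (3.17%) were found in no member. GC boxes (GGGCGG, 32.7%), left in lower case, lay in the windows of Fbp1, Pck1, Khk and Sord and in 1 of the Pcx windows. A match describes the letters and is not a measured binding site.

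Before the values, some facts of the libraries bear on all of them. Each library summed to 1000000 TPM, but the short structural RNAs Rpph1 and Rmrp took 19.3 to 21.8% of it in the CPF libraries and 19.6 to 41.8% in the DMSO libraries, with the highest share in DMSO E18.5. Coding transcripts held 72.7 to 73.9% in CPF and 53.3 to 75.1% in DMSO, so ratios at E18.5 are also given with each library rescaled to its coding transcripts. The median gene stood 0.53 log2 units higher in CPF E18.5 than in DMSO E18.5 as deposited, and 0.14 higher after that rescaling. Summed liver markers (26 genes) were high in CPF E14.5 and CPF E16.5, at 5594 and 6728 TPM, against 1139 and 81.4 TPM in the DMSO libraries of those stages. Adrenal cortex markers (11 genes) summed to 768 and 769 TPM in the same CPF libraries, against 105 and 120 TPM in DMSO, and pancreas markers (15 genes) to 784 TPM in CPF E16.5, against 9.58 TPM in DMSO E16.5. Gonad markers (9 genes) summed to 260 TPM in CPF E14.5 and 25.3 TPM in DMSO E14.5. Erythroid markers (11 genes) summed to 36821 and 17585 TPM in CPF E12.5 and E14.5, against 8056 and 4044 TPM in DMSO. The part of these tissues in the differences below was not tested. The tissue label was borne out at late stages by the proximal tubule list of 35 genes, which summed to 6741 TPM in CPF E18.5 and 1263 TPM in DMSO E18.5.

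Fbp1 (NM_019395; GRCm38 chromosome 13, 62864753 to 62888298) was close to 0 in young kidneys and abundant before birth. Its levels over the 4 stages, youngest first, were 0.685, 0.766, 12.4 and 572 TPM in the CPF libraries, against 0.0547, 0.869, 13.4 and 75.0 TPM in the DMSO libraries. Both E18.5 libraries lay above both E16.5 libraries, and these above both E14.5 libraries. The E12.5 libraries were lowest, with CPF E12.5 close to the E14.5 libraries. By the estimated worth of 1 read, the E12.5 values stand on about 10 reads in CPF and 1 read in DMSO. The E14.5 values stand on about 12 reads in CPF and 13 in DMSO, too few to set CPF E12.5 apart from them. The E18.5 values stand on about 8069 and 1821 reads. In CPF E18.5 Fbp1 was the gene at rank 146 of 24151 by TPM, and in DMSO E18.5 it was at rank 1353.

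Pck1 (NM_011044; chromosome 2, 173153073 to 173159274) commits oxaloacetate to glucose synthesis. Its levels over the 4 stages were 0.271, 0.180, 6.28 and 215 TPM in CPF, against 0, 0.0377, 10.1 and 16.7 TPM in DMSO. E12.5 and E14.5 overlapped at the floor of detection (0 to about 7 reads), E16.5 lay above them, and E18.5 above E16.5. G6pc (NM_008061; chromosome 11, 101367716 to 101377903), the last enzyme before free glucose leaves the cell, came later: 0.180, 0, 0.181 and 32.1 TPM in CPF, against 0, 0.0439, 0.300 and 4.87 TPM in DMSO. Both E18.5 libraries stood above all others, and the other 3 stages overlapped at 0 to about 11 reads each. G6pc passed the filter on low values only through its E18.5 libraries, and Fbp1 and Pck1 only through E16.5 and E18.5, so a difference between stages was built into their being tested.

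Pcx (chromosome 19, 4510472 to 4621752), which feeds the pathway from pyruvate, read at most 0.356 TPM in any library. Its level cannot be taken as low expression, because the files list 2 RefSeq transcripts for it (NM_001162946 and NM_008797), and genes with several listed transcripts mostly read near 0. The 4777 such genes had a median mean level of 0.142 TPM, against 3.64 TPM for the 19374 genes with 1 transcript. Gapdh, which every cell uses, also has 2 and read at most 0.926 TPM.

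The fructose enzymes had another course. Sord (NM_146126; chromosome 2, 122234839 to 122265337) was present from the start, with 17.7, 32.4, 39.1 and 123 TPM in CPF, against 13.9, 19.4, 21.3 and 28.8 TPM in DMSO. Each CPF library lay above the DMSO library of its stage, both E12.5 libraries lay below all later ones, and later neighbouring stages overlapped, since 39.1 TPM in CPF E16.5 exceeded 28.8 TPM in DMSO E18.5 and 32.4 TPM in CPF E14.5 exceeded 21.3 TPM in DMSO E16.5. Khk (NM_008439; chromosome 5, 30921436 to 30931248) had 23.3, 15.9, 21.6 and 58.2 TPM in CPF, against 15.2, 22.5, 18.7 and 27.4 TPM in DMSO. Its first 3 stages overlapped, between 15.2 and 23.3 TPM, and both E18.5 libraries lay above them. Only 1 Khk transcript is listed, so its isoforms cannot be separated.

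**Figure D1:**
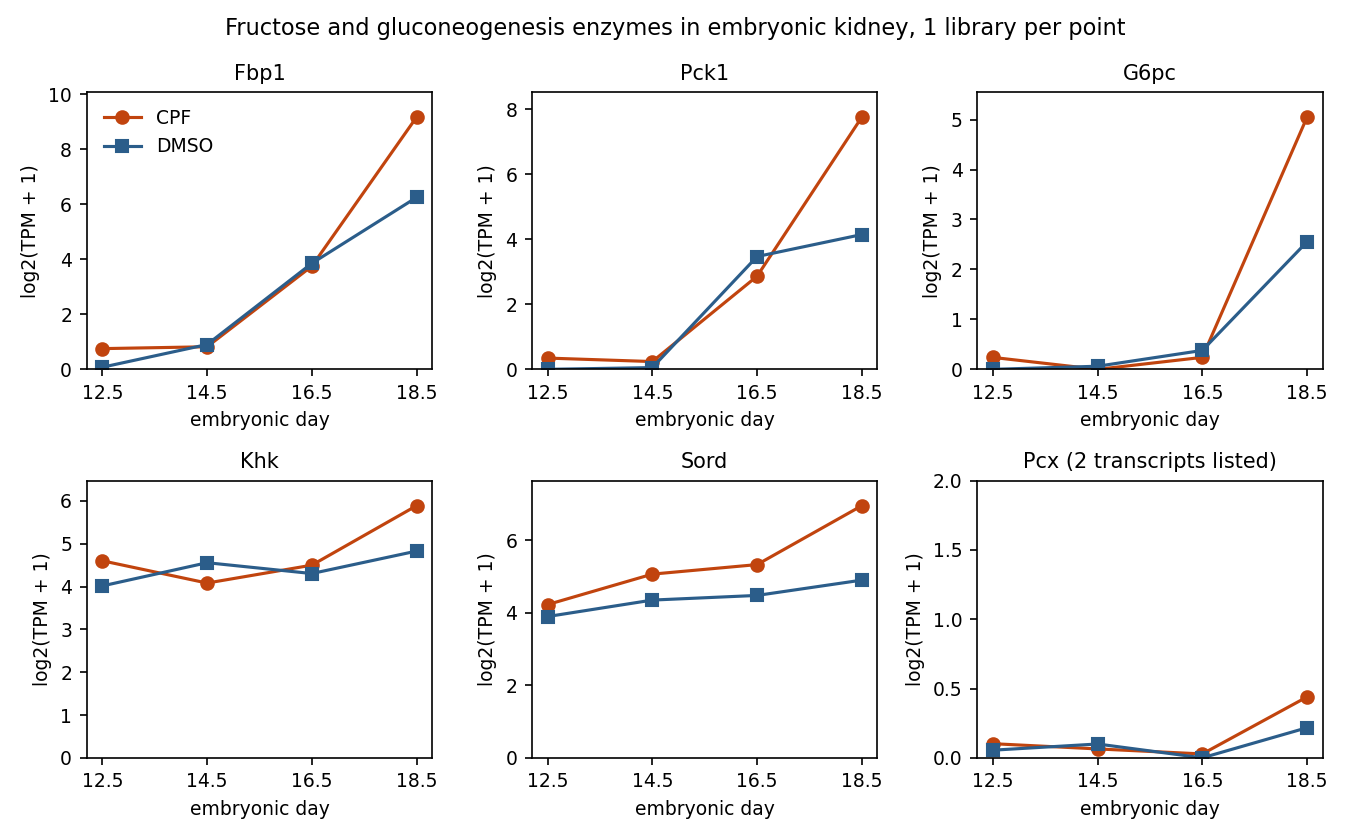
Level of each member, as log2(TPM + 1), against embryonic day, with 1 point per library (CPF circles, DMSO squares) and lines joining the stages of an agent; there are no replicates and no error bars. Fbp1, Pck1 and G6pc start near 0 and reach 572, 215 and 32.1 TPM in CPF E18.5 against 75.0, 16.7 and 4.87 TPM in DMSO E18.5, while Khk and Sord are present at every stage and Pcx stays near 0.

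Between E18.5 and E12.5, with both agents in the fit, 4 of the 5 tested members rose (limma on log2(TPM + 1), Benjamini-Hochberg adjusted p under 0.05), where 4.67% of the 13677 tested genes were called higher and 3.73% lower. The share called among all genes that passed the filter only through late libraries was not counted. For Fbp1, Pck1 and G6pc the filter built in a late rise, as said above. The count of 4 and the limma adjusted p-values of Fbp1, Pck1 and G6pc are therefore descriptions. With 1 library per agent and stage, these p-values measure how far stage differences vary between the agents' libraries, not the spread between animals. The log2 difference was 7.29 ± 0.68 (SE) for Fbp1 (limma adjusted p = 0.000437) and 5.78 ± 0.94 for Pck1 (limma adjusted p = 0.0136). It was 3.68 ± 0.60 for G6pc (limma adjusted p = 0.00428) and 1.86 ± 0.41 for Sord (limma adjusted p = 0.0151). Khk, at 1.05 ± 0.40, did not pass (limma adjusted p = 0.125). All tested genes had a median of -0.21 on this scale, which understates the change of genes near 0. With no filter on low values, none of the 24151 genes was called by limma. In that fit 4 of these members (all but Khk) had an unadjusted limma p under 0.05, and the share of all genes was not counted. In the fit with the filter, all 5 tested members and 3371 of the 13677 genes had an unadjusted limma p under 0.05. Without CPF E12.5, Fbp1 alone of the members passed, and Pck1, G6pc and Sord had limma adjusted p of 0.166, 0.0524 and 0.0987. Pck1 also missed without DMSO E12.5 (limma adjusted p = 0.143) and Sord without CPF E18.5 (0.0791), where Sord's difference was 1.15. Without CPF E18.5 the difference was also smaller for Fbp1, at 5.91, Pck1, at 3.96, G6pc, at 2.44, and Khk, at 0.57. Without DMSO E18.5 Khk was at 1.53. Over all alternatives tried, limma adjusted p reached 0.124 for Fbp1, 0.187 for Pck1, 0.199 for G6pc and 0.235 for Sord. The log2 differences ran between 5.91 and 9.22 for Fbp1 and between 3.96 and 8.28 for Pck1. They ran between 2.44 and 6.24 for G6pc and between 1.15 and 2.57 for Sord.

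In bulk tissue, fewer cells of a type and less RNA per cell cannot be told apart, and this holds for every difference given here. The proximal tubule markers moved with the members over the stages: 24 of the 27 tested genes of that list were called higher at E18.5 and none lower, with a median log2 difference of 5.22. 12 of the 24 passed the filter on low values only through E16.5 and E18.5 libraries, which builds in a higher late level, so this count is a description. Lrp2, the endocytic receptor megalin, had 5.84, 15.1, 83.1 and 1197 TPM in CPF, against 9.91, 10.8, 106 and 211 TPM in DMSO. Per 100 TPM of Lrp2 at E18.5 there were 47.8 TPM of Fbp1 in CPF and 35.5 TPM in DMSO, and 2.68 and 2.31 TPM of G6pc. Pck1 was higher on this footing, with 17.9 TPM in CPF and 7.90 TPM in DMSO, and Sord and Khk were lower, with 10.2 and 4.86 TPM in CPF against 13.6 and 13.0 TPM in DMSO. The part of a differing amount of proximal tubule in these differences was not tested.

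The neighbouring genes of glucose production rose in part. Of 18 listed genes of gluconeogenesis and glucose release other than the members, 17 were tested, 4 were called higher at E18.5 and none lower, with a median log2 difference of 0.62. 3 of the 4 are given here. Slc2a2, the glucose transporter GLUT2, rose by 5.02 ± 0.45 (limma adjusted p = 4.96e-05), and Slc37a4, which carries glucose 6-phosphate to the glucose-6-phosphatase, rose by 2.17 ± 0.46 (limma adjusted p = 0.0148). Fbp2, the muscle form of fructose-1,6-bisphosphatase, rose by 4.33 ± 0.73 (limma adjusted p = 0.00842), but it passed the filter only through E16.5 and E18.5 libraries, so a late rise was built in. The paralogs Pck2, the mitochondrial enzyme, and G6pc3, the widely expressed subunit, had differences of 0.060 ± 0.35 and 0.041 ± 0.41 (limma adjusted p = 0.941 and 0.967). Pck2 lay between 22.0 and 37.5 TPM in all 8 libraries, where Pck1 spanned 0 to 215 TPM.

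Of 17 other genes of fructose and polyol handling, 13 were tested and 3 were called higher at E18.5, none lower, with a median of 0.27. 2 of the 3 are given here. Dcxr, a reductase of xylulose, rose by 2.09 ± 0.40 (limma adjusted p = 0.00715). Akr1b7, an aldose reductase relative abundant in the adrenal cortex, was higher by 1.69 ± 0.40 (limma adjusted p = 0.0232). Between E16.5 and E18.5, however, Akr1b7 fell from 229 to 54.5 TPM in CPF and from 55.0 to 21.4 TPM in DMSO. Tkfc, triokinase, which acts further down the breakdown of fructose, and Slc2a5, the fructose transporter GLUT5, did not pass, at 1.50 ± 0.70 and 1.94 ± 0.68 (limma adjusted p = 0.238 and 0.115). Tkfc had 115 TPM in CPF E18.5 and 24.8 TPM in DMSO E18.5, and Slc2a5 had 20.9 and 2.83 TPM. In each of the other 6 libraries Tkfc stayed at 25.3 TPM or below and Slc2a5 at 2.52 TPM or below. Akr1b3, the aldose reductase that makes sorbitol, has 1 listed transcript and is at 0 in all 8 libraries. This 0 cannot be taken as no expression. Hba-a1, an erythroid marker with 1 listed transcript, is also at 0 in all 8, though the erythroid list summed to 36821 TPM in CPF E12.5.

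Genes that bring in precursors gave 4 of 10 tested (14 listed) higher and none lower, with a median of 1.18. These were Slc5a8, a lactate transporter of the tubule (5.74 ± 0.54; limma adjusted p = 0.000100), Gpd1, glycerol 3-phosphate dehydrogenase (4.04 ± 0.50; limma adjusted p = 0.000506), Aldh1l1, a folate enzyme (3.32 ± 0.46; limma adjusted p = 0.000950), and Glud1, glutamate dehydrogenase (1.57 ± 0.39; limma adjusted p = 0.0298). Slc5a8, like Fbp2, passed the filter only through late libraries. Glycolysis gave no higher call among 16 tested genes of 25, and 1 lower, with a median of -0.0055. That gene was Hk2, hexokinase 2, which phosphorylates glucose, the step opposite to G6pc; it fell by 1.83 ± 0.35 on the log2 scale (limma adjusted p = 0.00696). Hk2 had 38.0, 24.9, 20.2 and 13.6 TPM in CPF, against 65.8, 30.7, 20.5 and 13.2 TPM in DMSO.

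Among 25 regulators, 19 were tested and 2 were called higher, none lower, with a median of 0.17. Hnf4a, a nuclear receptor of liver and proximal tubule, had a difference of 5.76 ± 0.47 (limma adjusted p = 3.58e-05), and Klf15, a fasting-responsive factor, of 1.77 ± 0.47 (limma adjusted p = 0.0367). Several calls among these neighbours were lost without CPF E12.5: Slc37a4, Fbp2, Dcxr, Akr1b7, Glud1, Klf15 and Lrp2. Without CPF E18.5, Slc37a4 (1.26), Glud1 (0.84) and Klf15 (0.99) did not pass, with limma adjusted p between 0.0646 and 0.142. Hk2 did not pass without DMSO E12.5 (limma adjusted p = 0.0565), nor Akr1b7 without DMSO E18.5 (0.131).

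**Figure D2:**
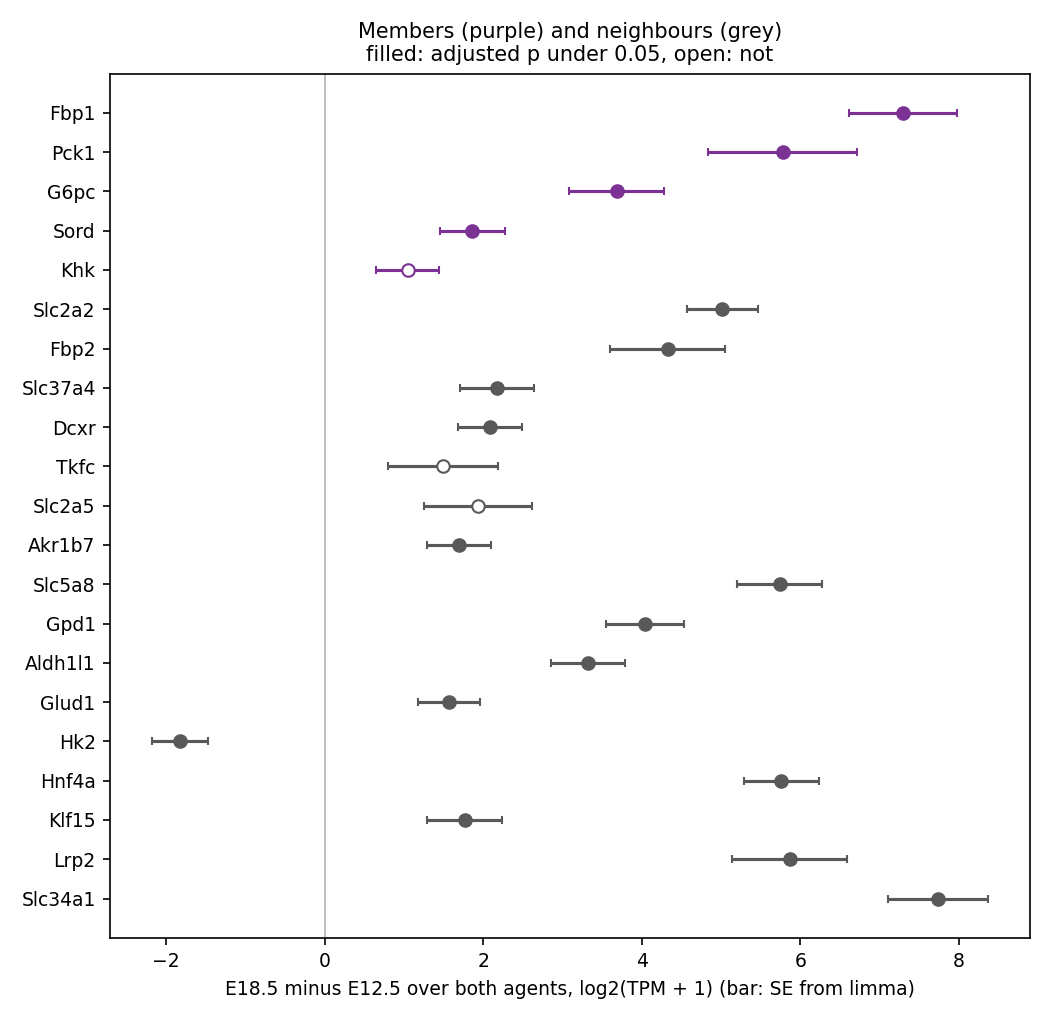
E18.5 minus E12.5 difference over both agents on the log2(TPM + 1) scale (x axis) for the 5 tested members and 16 neighbouring genes (rows); bars are the SE from limma, filled points have an adjusted p under 0.05. Fbp1 at 7.29 lies far right, Khk at 1.05 is open, and Hk2 at -1.83 is the filled point left of 0.

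At E18.5 all 5 tested members were more than 2-fold higher in CPF than in DMSO on the log2(TPM + 1) scale, where 20.4% of the tested genes were. With libraries scaled to coding transcripts 4 of them were, Khk being the exception. The 20.4% is for TPM as deposited, and the share of all tested genes was not counted after that scaling. The 4 therefore have no share to be read against. There is 1 library on each side, so the E18.5 difference between the agents has no replicate check and carries no p. The ratio of TPM, CPF over DMSO, was 12.9 for Pck1, 7.63 for Fbp1, 6.58 for G6pc, 4.25 for Sord and 2.12 for Khk. After rescaling to coding transcripts these ratios were 9.28, 5.51, 4.75, 3.07 and 1.53. The proximal tubule list had a median log2 ratio of 2.46 (2.00 rescaled) at that stage, beside 2.92 for Fbp1, 3.61 for Pck1, 2.49 for G6pc, 2.05 for Sord and 1.06 for Khk (2.45, 3.17, 2.13, 1.60 and 0.61 rescaled). The other genes of gluconeogenesis had a median of 1.48, those of fructose and polyol handling 1.12, precursors 1.51, regulators 1.08 and glycolysis 0.79. Rescaled, these medians were 1.03, 0.65, 1.04, 0.73 and 0.45 in the same order.

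2 days earlier the order of the agents differed between members. By TPM as deposited, CPF was lower for Fbp1, Pck1 and G6pc and higher for Sord and Khk. After rescaling to coding transcripts the E16.5 ratio was 0.997 for Khk and 1.59 for Sord, and it stayed below 1 for Fbp1, Pck1 and G6pc. At E16.5 none of the 5 was more than 2-fold higher in CPF, where 7.44% of the tested genes were, and the TPM ratios were 0.925 for Fbp1, 0.623 for Pck1, 0.602 for G6pc, 1.15 for Khk and 1.84 for Sord. The G6pc ratio stands on about 5 reads in CPF and 11 in DMSO. The step between the last stages differed accordingly. Fbp1 at E18.5 was 46.0 times its E16.5 level in CPF and 5.58 times in DMSO, Pck1 34.2 times in CPF and 1.66 times in DMSO, and G6pc 177 times in CPF and 16.2 times in DMSO. Sord was 3.13 times its E16.5 level in CPF and 1.36 times in DMSO, and Khk 2.69 and 1.46 times. At E14.5 and E12.5 the ratios of Fbp1, Pck1 and G6pc rest on at most 13 reads a library and were not read.

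**Figure D3:**
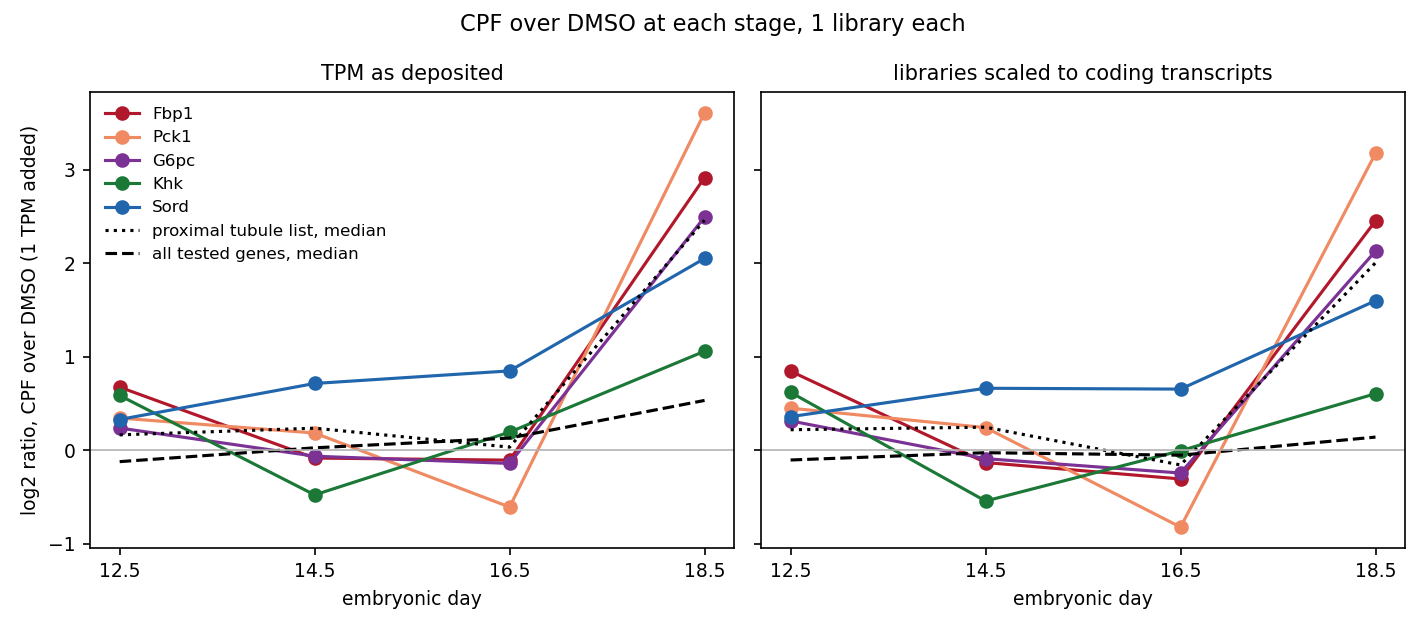
log2 ratio of CPF over DMSO with 1 TPM added (y axis) against embryonic day for the 5 tested members, with the medians of the proximal tubule list (dotted) and of all tested genes (dashed); the left panel uses TPM as deposited and the right panel libraries scaled to coding transcripts. At E18.5 the members span 1.06 to 3.61 on the left and 0.61 to 3.17 on the right, and Sord alone of the 5 is above 0 at every stage in both panels.

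Across the 4 stages, none of the 5 members was called between CPF and DMSO by limma, where 0.161% of the 13677 genes were called (22 genes). At an unadjusted p under 0.05, 1 member (Sord) and 1306 of all genes passed. Sord was higher in CPF at 4 of 4 stages, with a log2 difference of 0.99 ± 0.29 (limma adjusted p = 0.214). Fbp1 had 0.85 ± 0.48, Pck1 0.88 ± 0.66, G6pc 0.63 ± 0.43 and Khk 0.34 ± 0.28 (limma adjusted p between 0.660 and 0.795). Without the E18.5 pair these became 0.16 for Fbp1, -0.025 for Pck1, 0.013 for G6pc, 0.10 for Khk and 0.63 for Sord. Of the neighbouring genes in the lists, Akr1b7 alone was called, at 2.01 ± 0.29 (limma adjusted p = 0.0222). Its levels at E14.5 and E16.5 were 306 and 229 TPM in the CPF libraries, against 35.0 and 55.0 TPM in the DMSO libraries. The other 10 adrenal cortex markers, without Akr1b7, which is on that list, summed to 462 and 541 TPM in those CPF libraries, against 70.1 and 65.2 TPM in DMSO, and the part of adrenal RNA in its call was not tested. The call was lost with libraries scaled to coding transcripts (limma adjusted p = 0.148), and over its 12 alternatives adjusted p ran between 0.000555 and 1.

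The test of different slopes over embryonic day called no member and none of the 13677 genes (0%) by limma, and 3615 genes had an unadjusted p under 0.05, Sord among them. The slope in CPF minus that in DMSO was 0.33 ± 0.35 log2 units a day for Fbp1, 0.45 ± 0.35 for Pck1, 0.33 ± 0.36 for G6pc, 0.10 ± 0.13 for Khk and 0.26 ± 0.084 for Sord (limma adjusted p = 0.133 for Sord). These slopes are straight lines over 4 stages, while Fbp1, Pck1 and G6pc lay near 0 at the first stages and differed between agents mainly at E18.5.

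Alb served as the check on liver RNA. It had 60.9, 1668, 2036 and 373 TPM in CPF, against 3.89, 278, 5.77 and 2.03 TPM in DMSO. Alb was thus higher in CPF at every stage, and 183 times higher at E18.5 by TPM (132 times rescaled). The order of the libraries by Alb differed from that by Fbp1, Pck1 or G6pc. CPF E16.5 held the most Alb of all libraries and 353 times that of DMSO E16.5. Its TPM ratios to DMSO E16.5 were 0.925 for Fbp1, 0.623 for Pck1 and 0.602 for G6pc. The G6pc ratio stands on about 5 and 11 reads. CPF E14.5, with 1668 TPM of Alb, had 0.766 TPM of Fbp1, 0.180 TPM of Pck1 and 0 of G6pc. DMSO E18.5, with 2.03 TPM of Alb, had 75.0 TPM of Fbp1. For each 100 TPM of Alb there were 0.0459 TPM of Fbp1 in CPF E14.5, 0.611 TPM in CPF E16.5 and 154 TPM in CPF E18.5. At E18.5 the 26 liver markers summed to 1207 TPM in CPF and 52.1 TPM in DMSO, with 6 of the 26 at 0 in each. Liver of that stage was not measured, and what its RNA adds to the members in CPF E18.5 was not tested.

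Sord, like Alb, was higher in the CPF library at each stage. Over the stages of each agent, Sord rose at every step, while Alb rose at first and then fell. Between E16.5 and E18.5 in CPF, Alb went from 2036 to 373 TPM and Sord from 39.1 to 123 TPM. The liver list itself had a median log2 difference of 3.17 between CPF and DMSO across the stages. 1 of its 20 tested genes was called, Ambp, a plasma protein precursor, at 3.18 ± 0.40 (limma adjusted p = 0.0222). Ambp missed without the E12.5 pair (limma adjusted p = 0.0804) and without the E18.5 pair (0.168). Alb had 5.36 ± 1.15 (limma adjusted p = 0.268). The part of liver RNA in the Sord difference was not tested. Of other tissues that make these enzymes, summed intestine markers reached 64.9 TPM in CPF E18.5 and 9.6 TPM in DMSO E18.5, of which Cdhr2, also a gene of the tubule's brush border, gave 62.1 and 8.47 TPM.

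**Figure D4:**
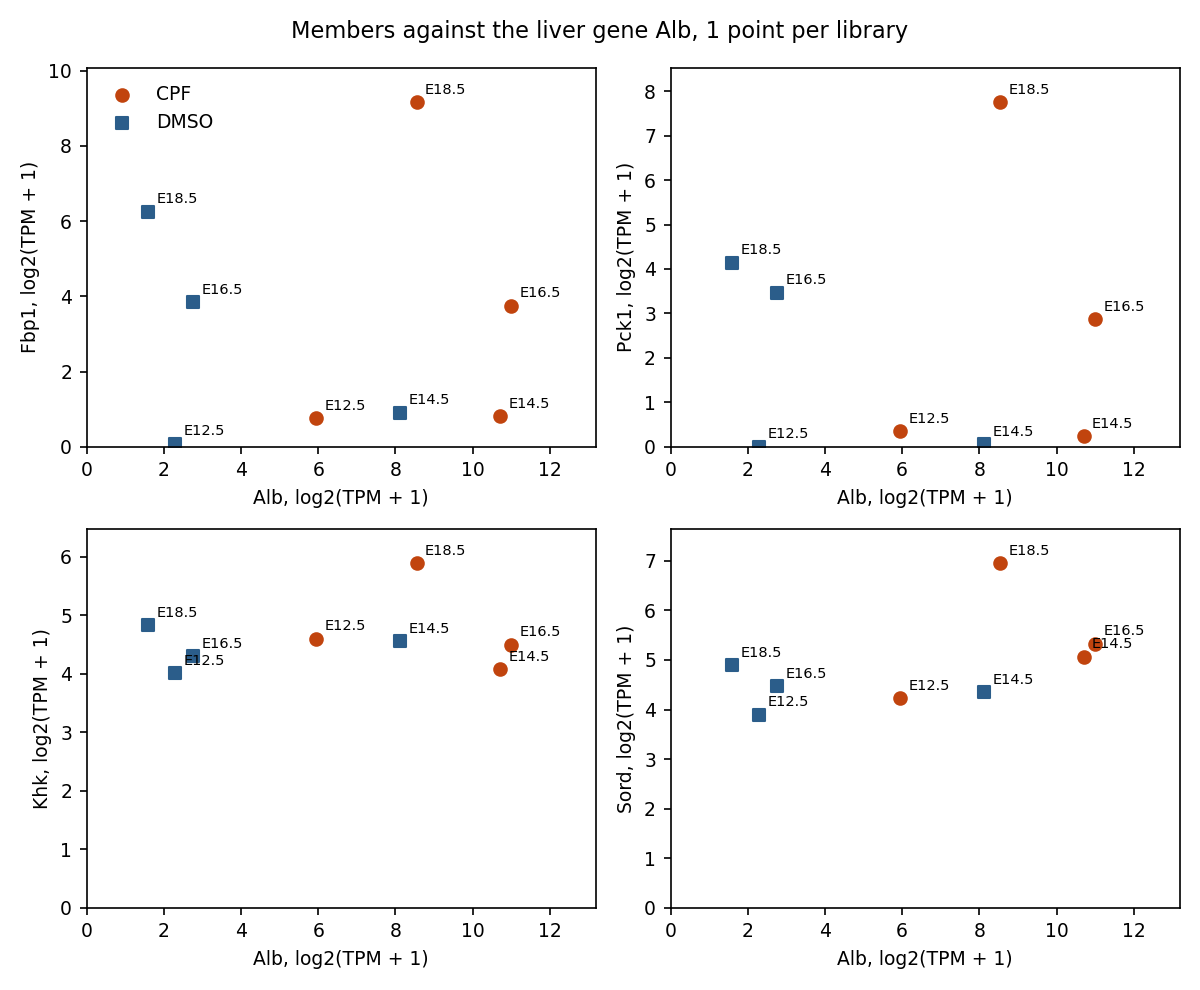
Level of Fbp1, Pck1, Khk and Sord (y axes) against Alb (x axes), both as log2(TPM + 1), with 1 point per library labelled by stage (CPF circles, DMSO squares). CPF E14.5 and CPF E16.5 lie far right at 1668 and 2036 TPM of Alb, with Fbp1 at 0.766 and 12.4 TPM, while DMSO E18.5 lies far left with Fbp1 at 75.0 TPM.

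The likeness of the members to each other was described by Pearson's r of log2(TPM + 1) over the 8 libraries. All genes share the stage and depth of a library, and both differ between libraries. Fbp1 and Pck1 had the highest r of the 10 pairs, 0.988. G6pc had 0.931 with Khk, 0.918 with Fbp1 and 0.903 with Pck1. The other pairs, all with Khk or Sord, lay between 0.828 and 0.853. Of 9098 genes averaging 5 TPM or more, those most like Fbp1 were the organic anion transporter genes Slc22a19 (r = 0.999) and Slc22a6 (0.996) and Kl, Klotho (0.995). Slc22a19 had 261 TPM in CPF E18.5 and 41.0 TPM in DMSO E18.5. Those most like Pck1 were Slc22a13 (0.997), Napsa (0.997) and Tmem72 (0.996), and like G6pc, Cyp24a1, the vitamin D hydroxylase (0.996), Car15 (0.987) and Acsm1 (0.979). Cyp24a1 had 54.1 TPM in CPF E18.5, 4.65 TPM in DMSO E18.5 and at most 0.369 TPM elsewhere. Those most like Sord were Fah, the last enzyme of tyrosine breakdown (0.997), Pappa2 (0.994) and Acad11 (0.985). Khk had the loosest matches, Slc35d2 (0.960), Slc5a11 (0.939) and Fuca2 (0.937).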

How the data were processed

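RNA-seq values were available for 8 libraries. The submitters' processing notes name Trimmomatic, STAR and mm10, with no versions; the step that made TPM is not given there. The authors deposited TPM for 32862 RefSeq transcripts in each library. Symbols listed as dates were restored by RefSeq identifier (27 genes), and transcripts were summed per symbol. TPM keeps no depth. The worth of 1 read, estimated from steps in low values, was 0.0609 to 0.105 TPM for 1 kb of transcript; 62.0 to 66.2% of low values were whole within 0.02, so read numbers are approximate.

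limma 3.58.1 (R 4.3.3, trend, robust) was fitted on log2(TPM + 1) for genes that reached 1 TPM in 2 or more libraries. Stage and agent gave 3 residual degrees of freedom, and agent by day gave 4. Counts had been one planned form; the TPM form was used. The fits were tested on simulated data. The members and gene lists were chosen with earlier results of these data known, and each list's first called genes, or else its highest, were named, except that some results are not reported here. Promoters came from RefSeq GRCm38.p6, and all 6 members matched. Alternatives were other scalings, another pseudocount, other filters, other terms and left-out libraries. The E14.5 and E16.5 pairs were left out together because their CPF libraries stand apart.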

Additional observations from a re-analysis of the deposited data

Results flagged for a closer look

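The change of the CPF over DMSO log2 ratio between neighbouring stages was large for some members, with opposite signs at the stages. For Fbp1 the ratio at E18.5 minus that at E16.5 was 3.02, and for Pck1 it was 4.21, with CPF higher at E18.5 and lower at E16.5 for both. For Khk the ratio at E14.5 minus that at E12.5 was -1.06, with CPF lower at E14.5 and higher at E12.5. For Khk at E16.5 minus E14.5 it was 0.67, with CPF higher at E16.5 and lower at E14.5; after scaling to coding transcripts the E16.5 ratio was -0.0036. Each side is 1 library, and none of these differences was tested.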

How the results depend on the processing

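The count of members called between CPF and DMSO was 0 under all 12 alternatives, and the count for slopes was 0 under all 8. Between E18.5 and E12.5 it was 4; it was 0 with no filter, where none of 24151 genes was called, and between 1 and 5 with a library left out. The 1 was without CPF E12.5. The other alternatives gave 3 to 5. G6pc missed with embryonic day as a linear covariate (limma adjusted p = 0.0684) and was not tested under the stricter filter, and Sord missed with agent left out (0.121). Khk passed with coding scaling (1.30, limma adjusted p = 0.0468) and without DMSO E18.5 (1.53, 0.0411). With a library or stage pair left out, the ranges that crossed 0 were -0.025 to 1.38 for Pck1 in CPF minus DMSO, -0.18 to 2.08 for Alb in E18.5 minus E12.5, and, for slopes, -0.20 to 0.75 for Fbp1, -0.24 to 0.86 for Pck1, -0.095 to 0.64 for G6pc and -0.098 to 0.38 for Khk. The Khk slope was -0.015 with quantile normalization. The cause was not tested. Of the single values, 88 of CPF minus DMSO and 316 of E18.5 minus E12.5 kept direction and call; 13 and 46 lost a call, and 5 and 9 gained one. Stage pairs the CPF and DMSO libraries in the fit, and without that term (no replicate block) 0 members were called. Depth limits Fbp1, Pck1 and G6pc at E12.5 and E14.5, where values rest on at most 13 reads.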
